A study of Mus musculus with 4 samples.

Results

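Among the CD11c+ cells of mouse liver, the preDC-like nuclei were defined by 6 transcripts, Gria3, Pi16, Ly6c2, Hrh1, Stxbp6 and Ror1. A barcode with at least 1000 UMIs (unique molecular identifiers, each 1 counted RNA molecule) was a member when these genes had together 3 or more UMIs. It also had to stay within 5 limits on the transcripts of other cells, namely at most 1 UMI of Siglech, Grm8 and Ccr9 (plasmacytoid dendritic cells), at most 1 of Txk, Ncr1, Il2rb and Cd3e (NK and T cells), at most 1 of Xcr1 and Clec9a (cDC1), at most 2 of C1qa, C1qb and C1qc (macrophages) and at most 2 of Fscn1, Cacnb3 and Il4i1 (mature dendritic cells). This left 1076 of 40915 nuclei, 136 of 14282 in the library of day 0 (D0) and 940 of 26633 in that of day 5 (D5).

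The nuclei came from livers of C57BL/6J mice on chow with 0.1% DDC (3,5-diethoxycarbonyl-1,4-dihydrocollidine, a xenobiotic that injures bile ducts) for 0 days (D0, the steady state) or 5 days (D5). Live CD45+ CD64- CD11c+ cells were sorted, a gate that keeps dendritic cells and removes most macrophages, and RNA and open chromatin (ATAC-seq) were read from the same nuclei by 10x Multiome. Each day was 1 library, made of an RNA and an ATAC sample, and the number of mice behind each is not given in the sources used here. No difference between days or classes could therefore be tested, and the day cannot be told apart from the library. All intervals below are exact 95% intervals of counting error alone.

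A preDC is a bone marrow-derived precursor that reaches tissues through the blood and completes its differentiation to a conventional dendritic cell (cDC) there. Precursors and plasmacytoid dendritic cells (pDC, the main producers of type I interferon) share several genes, among them Tcf4, which encodes the E protein E2-2 that maintains pDC identity, Runx2, Cd7 and the GPI-anchored surface protein gene Ly6c2. Mature cDC2 are marked by lectins such as Clec10a, Mgl2 and Cd209a and present antigen to CD4 T cells on MHC class II.

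For comparison, 3 classes were set by the same kind of rule. The cDC2 nuclei were within all 5 limits, no members, and had 3 or more UMIs of Clec10a, Mgl2 and Cd209a (1111 at D0 and 5260 at D5). The pDC nuclei had 3 or more UMIs of Siglech, Grm8 and Ccr9 (2557 and 2604), and the cDC1 nuclei 3 or more of Xcr1 and Clec9a (702 and 1194). Members held 315680 UMIs at D0 and 3454293 at D5, with a median of 1885 and 2869.5 per nucleus against 2133 and 3092.5 in cDC2 nuclei. Of the 591 barcodes that both libraries share, 2 fell on members at D0 and 23 on members at D5, and 0 were members on both days.

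The sequence before the start sites of the rule genes is shown because these stretches lay in open chromatin in both libraries. Of the 6 genes, 5 had an entry in the RefSeq promoter table (GRCm38.p6), and Gria3 had none. Each 250-base window before the most upstream start of that table lay with all 250 bases in a region called in both libraries. For Pi16, Ly6c2 and Stxbp6 this start lies downstream of the outermost end of the gene in the RefSeq gene table, and 86, 95 and 250 bases of the window fall within those gene bounds. Printed are the bases outside them, for Ly6c2 (chr15:75112067-75112221, minus strand), Pi16 (chr17:29318632-29318795, plus strand), Ror1 (chr4:100095541-100095790, plus strand) and Hrh1 (chr6:114397686-114397935, plus strand). Capitals mark the letters CAGCTG (an E-box as E proteins bind it), TGTGGT or ACCACA (the RUNX core) and GAGGAA or TTCCTC (the core of PU.1 and Spi-B sites), searched on both strands.
Ly6c2: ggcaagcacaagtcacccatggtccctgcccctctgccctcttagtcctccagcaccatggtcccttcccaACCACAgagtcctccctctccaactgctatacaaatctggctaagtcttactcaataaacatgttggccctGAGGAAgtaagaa
Pi16: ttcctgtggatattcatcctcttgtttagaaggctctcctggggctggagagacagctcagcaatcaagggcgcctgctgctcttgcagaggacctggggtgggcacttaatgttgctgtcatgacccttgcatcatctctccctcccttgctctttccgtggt
Ror1: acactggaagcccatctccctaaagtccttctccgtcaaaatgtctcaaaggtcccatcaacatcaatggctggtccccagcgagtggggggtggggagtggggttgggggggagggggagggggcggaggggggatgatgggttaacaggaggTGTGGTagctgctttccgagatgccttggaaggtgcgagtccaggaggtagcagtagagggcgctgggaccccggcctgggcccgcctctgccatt
Hrh1: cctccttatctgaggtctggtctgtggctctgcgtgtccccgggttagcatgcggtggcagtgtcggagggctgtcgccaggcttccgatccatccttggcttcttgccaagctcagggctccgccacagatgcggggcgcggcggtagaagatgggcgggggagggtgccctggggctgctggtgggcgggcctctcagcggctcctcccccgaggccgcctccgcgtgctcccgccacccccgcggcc

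The printed Ly6c2 stretch held 1 match of the RUNX core and 1 of the PU.1 core, the Ror1 window 1 of the RUNX core, and the Pi16 stretch and the Hrh1 window 0. Over the whole 250 bases, the Ly6c2 window held 1 match of each of the 3 motifs, the Pi16 window 1 of GAGGAA and the Stxbp6 window 0. Over all 32851 windows of the table, 13.001% held CAGCTG, 14.0% TGTGGT and 23.3% GAGGAA. A match is a run of letters and no measured binding.

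The rule genes are given first, as a description. Gria3 (an AMPA-type glutamate receptor subunit) stood at 453 CPM (UMIs per 1000000 UMIs of the class) in the members at D0 and 398 at D5, against 6.79 and 11.4 in cDC2, 15.5 and 20.9 in cDC1, and 246 and 292 in pDC nuclei. Ly6c2 was at 687 and 316 CPM in members, 42.2 and 25.7 in cDC2, and 219 and 196 in pDC. Gria3 and Ly6c2 were thus also high in pDC nuclei. The near-identical neighbour Ly6c1, with 0 UMIs in members, can share reads with Ly6c2, so the level of Ly6c2 is uncertain.

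Stxbp6 (a regulator of SNARE complexes) was at 333 and 222 CPM in members against 29.6 and 39.2 in pDC. Hrh1 (the histamine H1 receptor) was at 177 and 187 against 36.8 and 52.3, Ror1 (a Wnt5a receptor) at 105 and 47.8 against 13.6 and 9.41, and Pi16 (a peptidase inhibitor family member) at 79.2 and 94.1 against 2.05 and 11.2. These 4 genes were lower in pDC than in members on both days, while Gria3 and Ly6c2 came closest to the members there. At least 1 UMI of Gria3 was found in 51.5% of members at D0 and 64.0% at D5, and of Ly6c2 in 65.4% and 55.7%. In cDC1 nuclei, 2.85% and 5.78% had a UMI of Gria3 and 10.1% and 12.3% one of Ly6c2, with median depths of 2618 and 3952 UMIs. Whether these UMIs were background was not tested. The cDC2 nuclei were taken from non-members, which caps their rule genes at a sum of 2, so their levels of these 6 genes are low in part by construction.

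**Figure D1:**
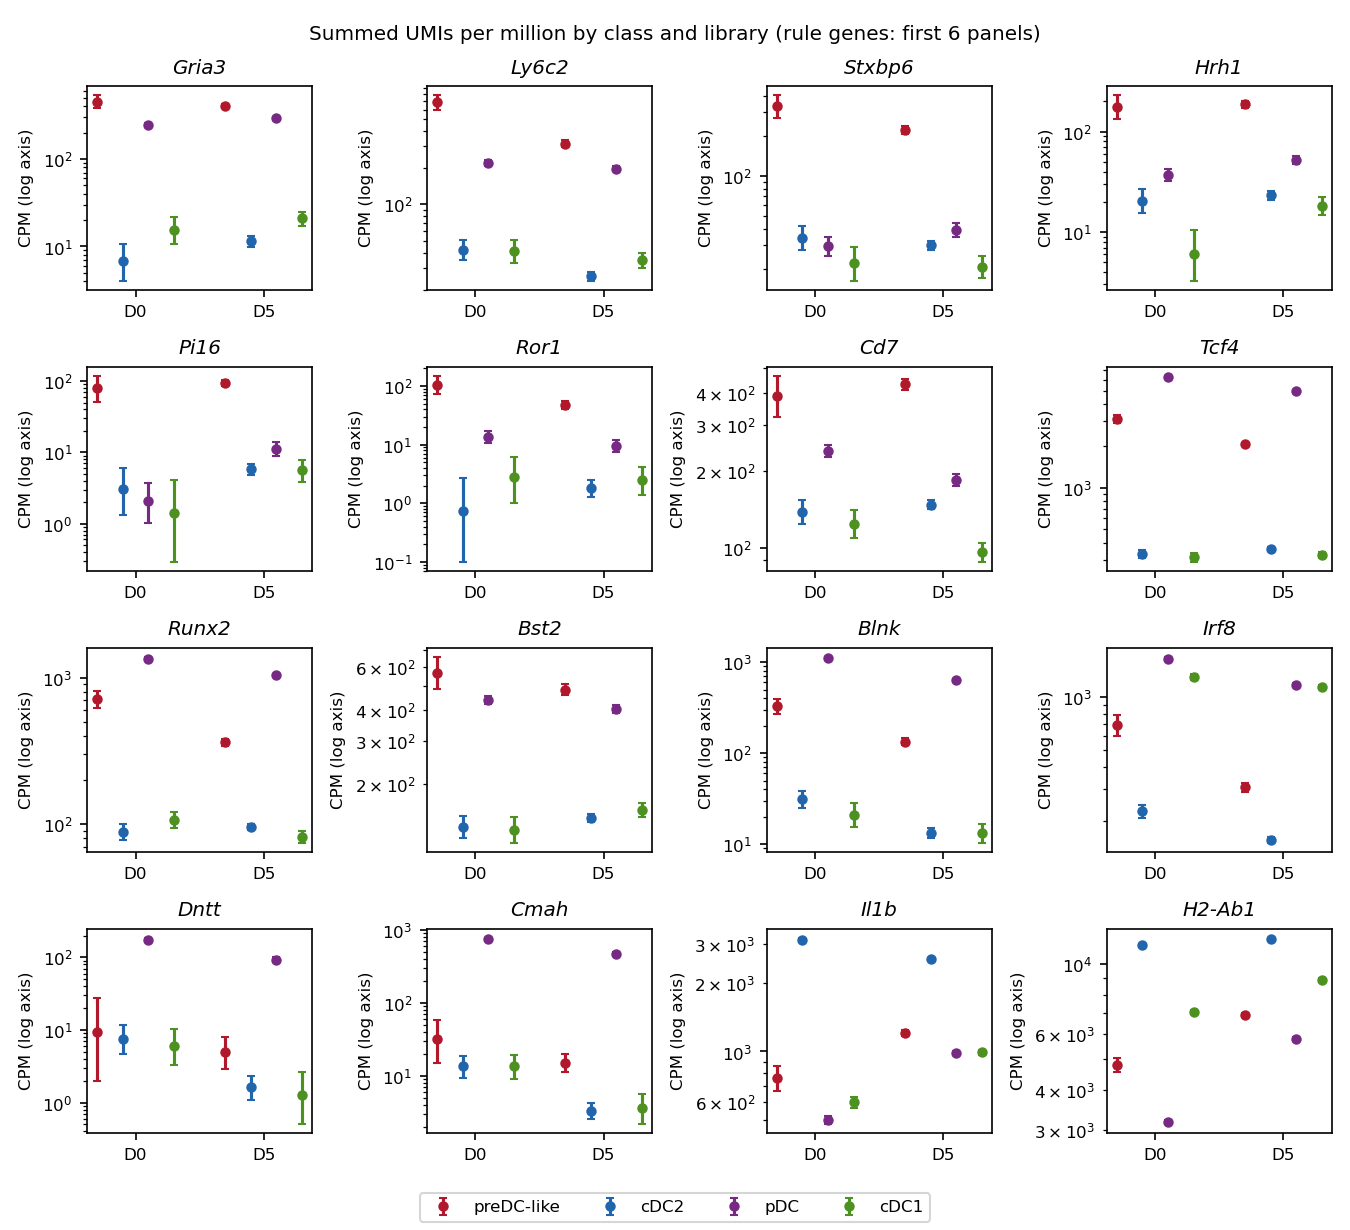
Summed level in CPM (log axis) of 16 genes in preDC-like, cDC2, pDC and cDC1 nuclei, 1 point per class for the D0 and the D5 library, with exact 95% Poisson intervals. The first 6 panels are the rule genes; of the others, Tcf4 lay in the members (3129.8 at D0, 2054 at D5) between cDC2 (332 and 361) and pDC (6275 and 4931), while Dntt (9.50 and 4.92) lay far below pDC (173 and 93.4).

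A member must hold 3 UMIs over the 6 genes, so the number of genes detected describes the selection and is no measure of co-expression. At D0, 69.1% of members (60.6% to 76.8%) had UMIs of 2 or more rule genes, and at D5 85.2% (82.8% to 87.4%). Members resting on Ly6c2 alone made up 14.7% at D0 and 3.72% at D5. The sum was exactly 3 in 48.5% of members at D0 and 38.3% at D5, so a large share lay at the threshold.

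Nuclei just inside the threshold (sum of 3) and just outside (sum of 2, otherwise within all limits) are compared here once. Tcf4 was at 1342 CPM outside and 2539 inside at D0, and at 952 and 1561 at D5. Bst2, which encodes the pDC-associated antigen PDCA-1, was at 255 and 476 at D0 and at 259 and 369 at D5. H2-Ab1 (an MHC class II chain) went the other way, from 7362 to 5936 at D0 and from 9063 to 7794 at D5. Nuclei on both sides of the threshold held all 3 transcripts.

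The members were 0.952% of nuclei at D0 (0.800% to 1.13%) and 3.53% at D5 (3.31% to 3.76%). The limits themselves kept 34.1% of nuclei at D0 and 58.0% at D5. Of the nuclei with a rule sum of 3 or more, 79.5% at D0 and 48.8% at D5 were over the pDC limit, 42.5% and 18.6% over the cDC1 limit and 40.8% and 13.3% over the NK and T cell limit. Within the limits the share was 2.79% (2.34% to 3.29%) and 6.09% (5.72% to 6.48%). Counted only against members plus cDC2 nuclei it was 10.9% (9.23% to 12.8%) and 15.2% (14.3% to 16.1%). With each nucleus thinned to 1000 UMIs, the first share was 0.553% (0.438% to 0.689%) and 1.23% (1.10% to 1.37%). The D5 share was higher in each of these counts. The ratio of D5 to D0 for members over all nuclei was 3.71, and 2.23 with depth matched. The days lay closer together in other counts. Before the limits, nuclei with a rule sum of 3 or more were 8.81% at D0 and 9.91% at D5. Thinned members were 0.984% and 1.53% of nuclei within the limits.

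The label was then checked against other genes of dendritic cell precursors, of which 12 were listed, in part from the study's own description and thus not independent of it. Relative to cDC2 nuclei, 10 could be compared at D0 (20 or more UMIs expected) and 5 were more than 2-fold higher, with 0 more than 2-fold lower. On day 5 all 12 could be compared, with 5 more than 2-fold higher and 0 more than 2-fold lower. Beyond their intervals, 9 were higher and 3 lower at D5. At D0 it was 5 and 0, with 3 of the 10 below 0. Over all genes compared, 5.52% were more than 2-fold higher at D0 and 3.01% at D5. The list's median log2 ratio was 0.92 and 0.47, beside 0.19 and 0.15 over all genes. Relative to pDC nuclei the same list was split. Of 10 genes compared at D0, 4 were higher and 4 lower beyond their intervals, 2 and 2 of them by more than 2-fold (5.26% and 8.02% of all genes), with a median of 0.17. Of 12 at D5, 8 were higher and 4 lower, 2 and 3 by more than 2-fold (1.87% and 6.59%), with a median of 0.46.

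Tcf4 was the largest of these differences, with a log2 ratio over cDC2 of 3.24 (3.10 to 3.37) at D0 and 2.51 (2.46 to 2.55) at D5. Runx2, a RUNX factor needed for pDC egress from bone marrow, was at 716 CPM in members at D0 and 363 at D5 against 88.3 and 95.5 in cDC2 (log2 3.02 and 1.92). Cd7, a surface receptor of early lymphoid and dendritic precursors, was at 389.6 and 433 against 138 and 148 (1.49 and 1.55). Bst2, from the list of pDC genes, was at 567 and 484 against 134 and 145 (2.09 and 1.74). Lair1, an inhibitory collagen receptor, was at 158 and 75.8 against 35.5 and 28.7 (2.16 and 1.40).

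Of 9 growth factor receptor genes, 1 of 6 compared with cDC2 at D0 was more than 2-fold higher (5.52% of all genes) and 0 lower (3.43%), with a median of -0.04. At D5, 3 of 8 were higher and 4 lower beyond their intervals, 0 of them by more than 2-fold, with a median of -0.10. The gene past 2-fold was Csf2rb2, a beta chain of the IL-3 receptor and a close copy of Csf2rb with which it can share reads, at 127 CPM at D0 and 57.0 at D5 against 37.7 and 38.6 (log2 1.75 and 0.56). Flt3, the receptor of the cytokine that drives dendritic cell development, differed by 0.36 (-0.01 to 0.71) at D0 and 0.41 (0.32 to 0.50) at D5 on the log2 scale. Csf1r, the M-CSF receptor, differed by -0.19 (-0.71 to 0.30) and -0.41 (-0.57 to -0.25), and Ccr2, a chemokine receptor by which cells leave bone marrow, by -0.03 (-0.30 to 0.24) and 0.24 (0.17 to 0.31). Against pDC nuclei, Csf1r was higher by 1.82 and 0.69, Ccr2 by 1.19 and 0.995, and Cd7 by 0.71 and 1.23. Not all receptors lay above pDC. Of the same 9 genes, 4 of 7 compared were lower than in pDC at D0 (median -0.18) and 3 of 8 at D5 (median 0.30), 1 and 2 of them by more than 2-fold (8.02% and 6.59% of all genes). Csf2rb, the beta chain of the GM-CSF receptor, was at 165 and 170.2 CPM against 217 and 199 in pDC.

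Markers of other cells were read next. Of the 12 classical monocyte genes, 2 at D0 and 1 at D5 had 0 UMIs in members, Vcan on both days among them. Fcgr1, which encodes the CD64 used for the negative gate, had 2 and 32 UMIs. Over cDC2, 2 of 6 genes compared at D0 were more than 2-fold higher (5.52% of all genes) and 1 lower (3.43%), and 1 and 2 of 8 at D5 (3.01% and 0.624%), with medians of 0.07 and -0.23. Over pDC, 3 of 4 at D0 and 1 of 8 at D5 were more than 2-fold higher (5.26% and 1.87%) and 0 lower, with medians of 1.11 and 0.45. Without Ly6c2, the other 11 genes summed to 3808 CPM at D0 and 4450 at D5 in members and 3259 and 4742 in cDC2. Lyz2 made up part of it, at 992 and 445 CPM against 883 and 496. The 8 macrophage genes beside the 3 limited by the rule summed to 38.0 and 28.9 CPM (cDC2 78.1 and 31.6), with 4 and 3 of them at 0 in members.

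Members that carried a single rule gene differed from the rest at D0. Lyz2 stood there at 1798 CPM in the 42 members with 1 rule gene, 504 in the 49 with 2 and 764 in the 45 with 3 or more, and at D5 at 792, 458 and 332. Fn1, a matrix gene of monocytes and macrophages, had 34 of its 38 UMIs of D0 in the first set. Retnla, a gene of alternatively activated macrophages, had 45 UMIs at D0, all in 2 nuclei of that set that also held 25 UMIs of Fn1. Tcf4 was lowest in the first set and highest in the last, at 2299, 3184 and 3848 CPM at D0 and 1378, 1946 and 2338 at D5.

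Against cDC2 nuclei, 62 genes (1.99% of 3115 compared on both days) were more than 2-fold higher in the members on both days and 11 (0.353%) lower. By day this was 172 genes higher (5.52%) and 107 lower (3.43%) at D0, and 280 (3.01%) and 58 (0.624%) at D5. The 24 genes that define the classes are not counted. Scaling by TMM, a mean over genes of middling change, lowers every log2 value against cDC2 by 0.34 at D0 and 0.20 at D5. With it, 28 genes were more than 2-fold lower on both days, and the number was 67 after thinning, 34 without high doublet scores and 5 in members with 2 or more rule genes.

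Among the genes with the highest ratios over cDC2 were some that B cells and pDC also use. Blnk, the adaptor of the B cell receptor, was at 326 CPM at D0 and 134 at D5 in members against 31.3 and 13.2 in cDC2 nuclei, a log2 ratio of 3.38 (2.95 to 3.82) and 3.35 (3.12 to 3.57). Setbp1, which encodes a SET-binding nuclear protein, was at 352 and 133 against 27.9 and 13.8 (3.66 and 3.26). Aff3, a lymphoid transcriptional regulator, was at 523 and 454 against 99.2 and 94.8 (2.40 and 2.26).

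Further named genes of this kind were the kinase gene Prkca (2.86 and 2.33), the membrane protein gene Mctp2 (2.22 and 2.56), the magnesium transporter gene Slc41a2 (3.28 and 2.14), Arhgap32 (3.37 and 2.09), Syne2 (2.07 and 2.05) and Tex2 (2.40 and 1.98). Each of these lay higher in members than in cDC2 beyond its counting interval on both days. Each was also higher in pDC nuclei than in the members, except Syne2 at D0, where the log2 ratio to pDC was -0.03 (-0.52 to 0.42).

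Transcription factors of the dendritic lineages were read from a list of 27. Relative to cDC2, 6 of 22 were more than 2-fold higher at D0 and 5 of 26 at D5 (5.52% and 3.01% of all genes), with 0 lower on either day (3.43% and 0.624%). Irf8, which directs pre-cDC1 and pDC programmes, was at 691 and 308 CPM in members, between cDC2 (226 and 155) and pDC (1635 and 1168). Bcl11a, a factor upstream of E2-2, was at 449.8 and 373 against 150.1 and 160.1 in cDC2 (log2 1.58 and 1.22). Zeb2, which restrains cDC1 fate, was higher than in cDC2 by 0.73 and 0.80 and than in cDC1 by 2.64 and 2.38. Id2, the inhibitor of E proteins that rises as cDC form, was lower than in cDC2 by -0.86 (-1.15 to -0.58) and -0.56 (-0.63 to -0.49).

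All 12 listed cDC2 genes, with the lectins that define the cDC2 nuclei, summed to 2198 CPM at D0 and 1906 at D5 in members. In cDC2 it was 3886 and 2688. No limit of the rule bars Clec10a, Mgl2 or Cd209a. Cd209a stood at 282 and 395 CPM in members, with a UMI in 49 and 539 of them. Clec10a stood at 149 and 262 CPM, with a UMI in 28 and 398. Without these lectins, the list of cDC2 genes was not lower as a whole. Of its 9 genes outside the rules, 7 were compared with cDC2 nuclei, and on each day 1 was more than 2-fold higher, the lectin gene Cd209d (2.66 and 1.49), and 0 lower, beside the same shares of all genes as above. The list's median was -0.01 at D0 and 0.41 at D5. In contrast, all 12 genes of MHC class II presentation were lower in members than in cDC2 on both days, 11 of them at D0 and 12 at D5 beyond their intervals, and 5 and 0 by more than 2-fold (3.43% and 0.624% of all genes). Their median was -0.87 and -0.70. H2-Ab1 was at 4786 and 6894 CPM against 11443 and 11992, and Cd74, the invariant chain, at 10257 and 13054 against 22774 and 21500.0. Relative to pDC nuclei, 12 and 11 of the 12 were higher, 4 and 0 of them by more than 2-fold (5.26% and 1.87% of all genes), with a median of 0.74 and 0.30.

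Among the genes lower than in cDC2 by more than 2-fold on both days were Il1b (the cytokine IL-1 beta, -2.03 and -1.09), Clec4b1 (a C-type lectin gene, -2.83 and -1.08), Mcemp1 (-2.06 and -1.16), Hpgd (a prostaglandin-degrading enzyme, -2.25 and -1.13), Tnip3 (an NF-kB inhibitor, -1.91 and -1.12), Ccl17 (a CCR4 ligand, -1.07 and -1.62) and Ltb4r1 (the leukotriene B4 receptor, -1.11 and -1.01). Immediate early genes were lower for 8 of 9 at D0 and 9 of 9 at D5, 3 and 0 of them by more than 2-fold (3.43% and 0.624% of all genes), with medians of -0.73 and -0.31. Mature dendritic cell genes had a median of -1.07 over 5 at D0 and -0.11 over 8 at D5.

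Against pDC nuclei, 27 genes (0.808% of 3342) were more than 2-fold higher on both days and 196 (5.86%) lower. By day it was 176 (5.26%) and 268 (8.02%) at D0 and 179 (1.87%) and 631 (6.59%) at D5. Higher were L1cam (an adhesion molecule, log2 3.30 and 2.01), Fcgrt (the neonatal Fc receptor, 2.25 and 1.57), Lrp1 (an endocytic receptor, 1.69 and 1.45), Emilin2 (2.47 and 1.14), Cd300a (an inhibitory receptor, 1.95 and 1.14) and Vim (vimentin, 1.50 and 1.19). TMM scaling moved these values by -0.15 at D0 and 0.01 at D5. Without high doublet scores 163 genes were higher on both days, and after thinning 88 were lower.

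Of 11 pDC genes listed beside those of the rule, 8 at D0 and 9 at D5 were more than 2-fold lower in members than in pDC (8.02% and 6.59% of all genes). None was more than 2-fold higher, and the medians were -2.22 and -2.08. Beyond their intervals, 2 at D0 and 1 at D5 were higher in members. Bst2 stood at 567 and 484 CPM in members against 440 and 403 in pDC. Relative to cDC2 nuclei, 4 of 5 and 6 of 10 of the pDC genes were more than 2-fold higher (5.52% and 3.01%), with medians of 2.09 and 1.39. Tcf4 and Runx2 stand in this list and in that of the precursor genes. Dntt, the terminal transferase of lymphoid progenitors, had 3 UMIs at D0 and 17 at D5 in members against 929 and 725 in pDC (log2 -4.18 and -4.25). Cmah, a sialic acid hydroxylase, was at 31.7 and 15.1 CPM against 744 and 473 (-4.55 and -4.97). Others were Sema4b (-4.39 and -4.91), Mctp2 (-3.95 and -4.52), Prkca (-3.41 and -4.50) and Agbl1 (-5.56 and -6.63, from 1 and 3 UMIs in members). Siglech, on which the rule sets a limit, was at 85.5 and 57.3 CPM against 1364 and 1002.

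Against cDC1 nuclei, 127 genes (3.92% of 3238) were more than 2-fold higher on both days and 100 (3.09%) lower. The counts by day were 212 (6.55%) and 158 (4.88%) at D0 and 564 (5.99%) and 365 (3.88%) at D5. Blnk (3.95 and 3.35), Rgl1 (3.04 and 3.06), Lifr (the LIF receptor, 3.72 and 2.50), the lectin gene Cd209d (3.98 and 2.46) and Cd200r1 (an inhibitory receptor, 2.50 and 2.25) were among the former. Lower were the cDC1 genes Itgae (the CD103 chain, -4.80 and -3.37), Cadm1 (-3.44 and -3.31) and Tlr3 (a sensor of double-stranded RNA, -3.26 and -3.55).

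Beside the rule genes, 2 of 2847 genes (0.0702%) were more than 2-fold above all 3 classes on both days, and 0 (0.0%) below all 3. This criterion was chosen after the values were seen. L1cam stood at 127 CPM at D0 and 67.5 at D5, against 22.6 and 23.5 in cDC2, 12.8 and 16.8 in pDC and 12.2 and 12.3 in cDC1. Fcgrt stood at 168 and 209.6, against 75.8 and 97.8, 35.3 and 70.7, and 74.0 and 92.9. The smallest of the 6 log2 ratios was 1.52 for L1cam and 1.10 for Fcgrt, and with TMM scaling 1.31 and 0.80, so that Fcgrt no longer passed. The pair was not stable under other settings. Without high doublet scores and with 2 or more rule genes it was Cd200r1 and Fcgrt, and after thinning Cd200r1 and Cd209d. L1cam kept a smallest ratio of at least 1.63 in these, but had too few counts to be compared.

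A set of 353 genes was more than 4-fold higher in pDC than in cDC2 nuclei on both days, with the genes used by the rules left out. In members these genes stood at a median of 26.0% of their pDC level at D0 and 22.2% at D5, and in cDC2 nuclei at 10.3% and 10.4%. The genes were unequally raised. At D0, 142 of them reached 30% of the pDC level and 63 stayed under 10%, and at D5 124 and 68. The middle 80% ran from 4.75% to 64.6% at D0 and from 6.60% to 52.4% at D5.

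Nucleus by nucleus, the 353 genes took a median of 2.77% of a member's UMIs at D0 and 1.46% at D5. In cDC2 nuclei it was 0.821% and 0.606%, in cDC1 nuclei 1.60% and 1.03%, and in pDC nuclei 10.2% and 8.49%. The members' 10th to 90th percentile spanned 0.930% to 5.87% at D0 and 0.713% to 3.47% at D5, and that of the pDC nuclei 5.36% to 12.5% and 3.21% to 11.1%.

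The same was read in the ATAC layer, which the rule did not use. Of the 127216 regions called in both libraries, 4676 had more than 4-fold more fragments in pDC than in cDC2 nuclei on both days. They took a median of 3.37% of the fragments of a member at D0 (quartiles 1.40% and 4.45%, 125 nuclei with 500 or more fragments) and 2.01% at D5 (1.24% and 3.09%, 868 nuclei). In cDC2 nuclei the median was 0.548% and 0.564%, in cDC1 1.03% and 0.920%, and in pDC 8.31% and 8.21%. Both the genes and the regions were chosen for the difference between these pDC and cDC2 nuclei, so that cDC2 and pDC stand at the ends by construction. The place of the members between them is a description, and the limit on Siglech, Grm8 and Ccr9 bears on it too. Of the members, 59.2% at D0 and 66.8% at D5 lay above the 90th percentile of cDC2 and below the 10th percentile of pDC. At or under the cDC2 percentile lay 18.4% and 18.3%, and at or over the pDC percentile 22.4% and 14.9%. The cDC1 median also lay between these percentiles at D0, at 1.03% beside a cDC2 90th percentile of 0.945%. At D5 it lay under that percentile (0.920% beside 1.04%). The share of cDC1 nuclei between the percentiles was not counted.

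**Figure D2:**
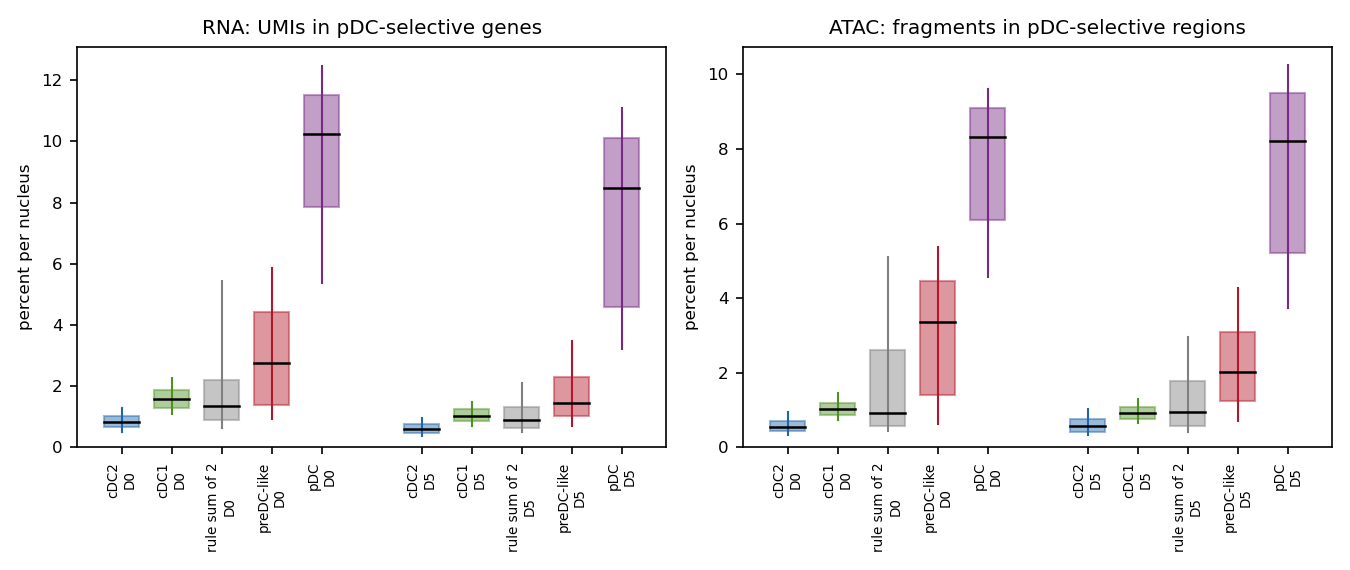
Percent of each nucleus's UMIs in 353 pDC-selective genes (left) and of its fragments in 4676 pDC-selective regions (right) for cDC2, cDC1, nuclei with a rule sum of 2, preDC-like and pDC nuclei in both libraries; boxes are quartiles with the median, lines the 10th to 90th percentile over nuclei. In both layers the members' median (ATAC 3.37% at D0 and 2.01% at D5) lay between those of cDC2 (0.548% and 0.564%) and pDC (8.31% and 8.21%).

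Doublets, barcodes that hold more than 1 nucleus, were scored. A simulated doublet score of 0.2 or more was reached by 8.09% of members at D0 and 24.1% at D5, against 4.14% and 15.2% of cDC2 and 17.3% and 32.0% of pDC nuclei. Without such nuclei the members' median in the 4676 regions was 3.52% and 2.27%. In members with 0 UMIs of Siglech, Grm8 and Ccr9 it was 2.62% at D0 (86 nuclei) and 1.82% at D5 (616 nuclei), and their RNA share was 2.42% and 1.36%. All these values lay above the cDC2 90th percentile, which was 0.945% and 1.04% in the regions. Median UMIs per member were below those of cDC2 nuclei on both days, and median fragments above them (5693.5 and 4439 against 4647 and 3855.5). The part of doublets in the members' values was not tested further.

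The pDC-selective share followed the rule sum. Within the 5 limits, its median at D0 was 0.711% at a sum of 0, 0.738% at 1, 0.929% at 2, 1.85% at 3, 3.26% at 4 or 5 and 4.15% at 6 or more. At D5 it was 0.627%, 0.694%, 0.956%, 1.49%, 2.05% and 2.55%. The mean share in the 158 regions more than 4-fold higher in cDC2 than in pDC went the other way, from 0.141% at a sum of 0 to 0.0254% at 6 or more at D0, and from 0.145% to 0.0693% at D5. Gria3 and Ly6c2 are themselves high in pDC nuclei, so the sum and the share are not independent.

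**Figure D3:**
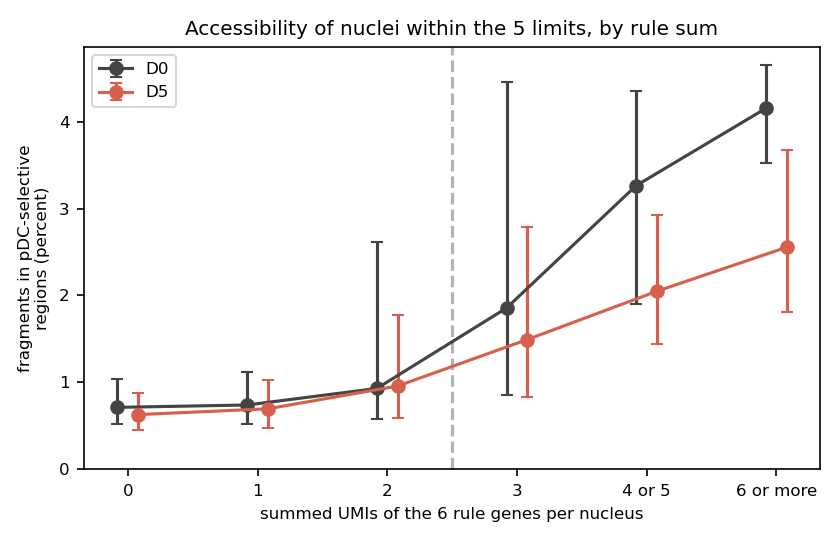
Median percent of fragments in the 4676 pDC-selective regions (bars, quartiles over nuclei) against the summed UMIs of the 6 rule genes, for nuclei within the 5 limits at D0 and D5; the dashed line is the membership threshold of 3. The median went from 0.711% to 4.15% at D0 and from 0.627% to 2.55% at D5, and was 0.929% and 0.956% just below the threshold.

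Single regions bore on named genes. In the 4 kb around each start site (2 kb on either side), Cd7 was more accessible in members than in cDC2 by 0.95 (0.26 to 1.60) at D0 and 1.28 (1.01 to 1.53) at D5 on the log2 scale. Of the genes with printed sequences, Ror1 had 1.26 (0.21 to 2.23) and 0.88 (0.39 to 1.36), and Pi16 1.13 (0.13 to 2.04) and 0.97 (0.55 to 1.37). Hrh1 had 0.44 (-0.03 to 0.89) and 0.86 (0.70 to 1.02), and Ly6c2 0.29 (-0.86 to 1.28), from 10 fragments, and 0.77 (0.31 to 1.22). The other rule genes were Stxbp6, with 0.14 (-0.50 to 0.73) and 0.55 (0.30 to 0.79), and Gria3, with 1.61 (-1.02 to 3.84) and 0.73 (-0.13 to 1.53) from 3 and 18 fragments. All 6 were above 0 against cDC2, beyond the interval for 2 at D0 and 5 at D5. These genes were chosen by the rule, and their UMIs were capped in cDC2 nuclei. Over all regions in the gene or within 2 kb of its ends, log2 ratios to pDC at D5 were -0.57 for Gria3, 0.03 for Ror1 and 0.04 for Ly6c2. They were 0.58 for Stxbp6, 0.63 for Pi16 and 0.70 for Hrh1. To cDC1 the values, in the same order, were 0.13, 0.28, -0.49, 0.37, 1.69 and 1.07. The Siglech window had 1.65 and 1.40 over cDC2, although a limit kept Siglech UMIs low. Over all windows, 0.277% of 9752 at D0 and 1.63% of 14507 at D5 were more than 2-fold higher than in cDC2 and 0.523% and 0.276% lower, with medians of -0.11 and -0.06.

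For several genes the RNA and the start site differed. Tcf4 RNA was higher by 3.24 and 2.51 but its window by 0.16 (-0.28 to 0.58) and 0.22 (0.03 to 0.40). Runx2 RNA was higher by 3.02 and 1.92 and its window was at -0.09 (-0.92 to 0.66) and -0.55 (-0.88 to -0.22). With Lair1, RNA was at 2.16 and 1.40 and the window at -0.67 and -0.43. The window of H2-Ab1 was lower by -0.52 and -0.58, in the direction of its RNA. A window counts only fragments near 1 annotated start. Over all 45 regions in the Tcf4 gene or within 2 kb of its ends, members were higher than cDC2 by 0.42 (0.22 to 0.62) at D0 and 0.32 (0.23 to 0.40) at D5. Over the 53 regions of Runx2 the values were 0.02 (-0.19 to 0.22) and -0.10 (-0.19 to -0.02). The lectins whose RNA defines the cDC2 nuclei were read in the same way. Clec10a was at -0.01 (-0.75 to 0.66) and 0.50 (0.24 to 0.76), and Mgl2 at 0.75 (-0.26 to 1.66) and 0.68 (0.26 to 1.09). Cd209a was at 0.21 (-0.69 to 1.02) and -0.14 (-0.55 to 0.24). L1cam, higher in RNA, was at 0.11 (-0.79 to 0.91) and 0.16 (-0.20 to 0.50).

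Across shared regions, 8 (0.0743% of 10769) were more than 2-fold higher than in cDC2 nuclei on both days and 8 lower. At D5 alone, where the members had more fragments, it was 2592 higher (5.5% of 47148) and 740 lower (1.57%), of which 10.5% and 10.3% lay within 2 kb of a start site beside 32.6% of all regions compared. At D0 it was 58 (0.539%) and 163 (1.51%). Regions on chromosome 18, which holds Tcf4 and Setbp1, were left out of the ranking. Among the others, the highest on both days was chr7:5035053-5035988 (mm10), which overlaps Zfp784. Its log2 ratios were 3.25 and 1.55 over cDC2 and 2.88 and 1.65 over cDC1, from 39 fragments at D0 and 145 at D5. It was also open in pDC nuclei, at 39.8 and 51.8 CPM of fragments against 46.3 and 30.3 in members.

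Another was chr1:127830065-127830989 within Map3k19 (1.73 and 1.21 over cDC2), at 38.0 and 43.2 CPM of fragments in members and 46.6 and 52.3 in pDC. The Hrh1 start-site region chr6:114397507-114398322, which holds the printed Hrh1 sequence, was higher than in cDC1 by 1.50 and 1.67. Lower than in cDC2 was chr19:40639563-40640483 in Entpd1, the gene of the ectonucleotidase CD39 (-1.34 and -1.27). Against pDC nuclei 23 regions were higher on both days (0.22% of 10466) and 78 lower (0.745%), and against cDC1 nuclei 38 (0.372% of 10203) and 13 (0.127%). Over pDC nuclei, chr11:114902817-114903747, 12776 bases from the Cd300a start, was higher by 2.69 and 1.43, and a region in Cracr2a, chr6:127565649-127566709, lower by -2.21 and -2.56.

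**Figure D4:**
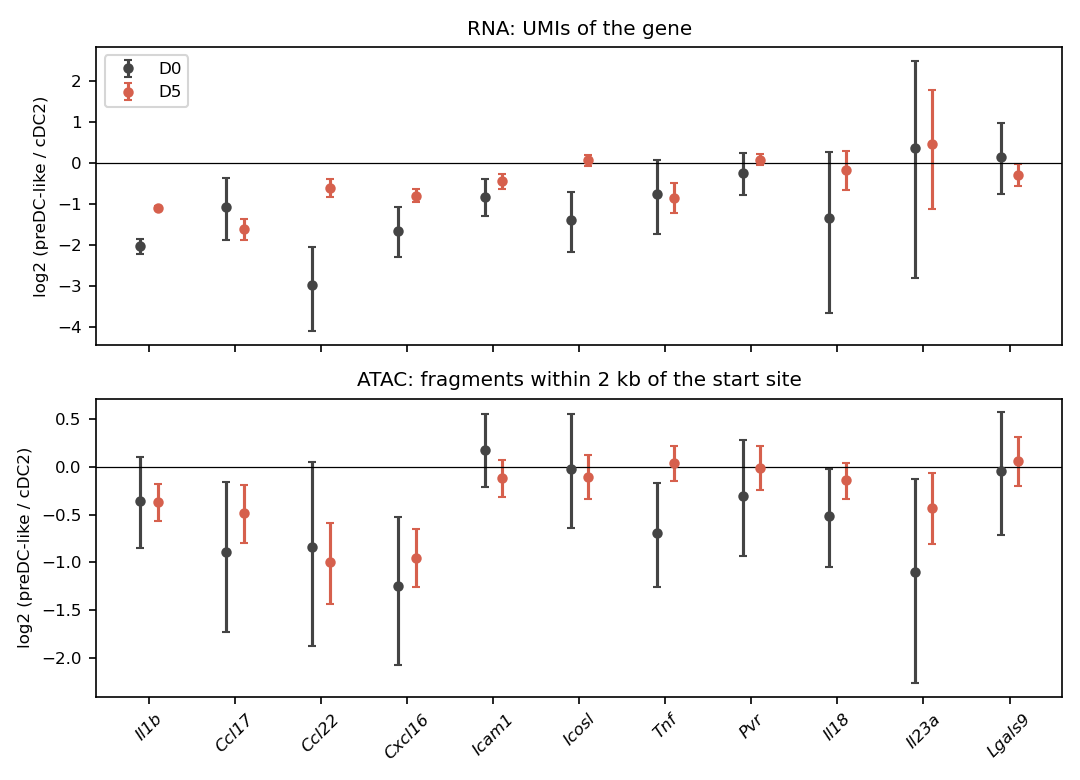
Log2 ratio of preDC-like over cDC2 nuclei for the 11 ligand genes, in RNA (top) and in fragments within 2 kb of the start site (bottom), at D0 and D5, with exact 95% intervals. In RNA 7 of 7 genes compared lay below 0 at D0, and at D5 Icosl (0.07) and Pvr (0.09) lay at 0 within their intervals; genes too low to compare, such as Il23a, show wide intervals, and Cxcl16 was below 0 in both layers on both days.

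The study followed signals by which cDC2 act on gamma delta T cells, and 11 such ligand genes were listed from it, a list that is therefore not independent of these samples. In members at D0, 7 could be compared with cDC2 and all 7 were lower, 5 by more than 2-fold (3.43% of all genes), with a median of -1.39. At D5, 8 of 10 were lower, 2 by more than 2-fold (0.624% of all genes), with a median of -0.53. The median of the panel's start-site windows was -0.51 at D0 and -0.14 at D5, beside -0.11 and -0.06 over all windows. For the RNA of the panel at D5, the median was -0.73 with TMM scaling and -0.84 without high doublet scores.

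Il1b was at 760.3 CPM at D0 and 1209 at D5 in members and 3104 and 2568 in cDC2. Cxcl16, a ligand of CXCR6 on T cells, was at 79.2 and 109 against 250.1 and 189 (log2 -1.66 and -0.79), and its window at -1.25 (-2.08 to -0.52) and -0.95 (-1.26 to -0.66). Ccl17 was at 53.9 and 38.5 against 113 and 118, with a window at -0.89 and -0.49. Ccl22, encoded beside it, was at -2.97 and -0.61 in RNA, and its window was at -0.84 (-1.88 to 0.05) at D0 and had an interval of -1.43 to -0.59 at D5. Il1b was lower by -2.03 and -1.09 in RNA and by -0.35 (-0.85 to 0.11) and -0.37 (-0.57 to -0.18) at its start site.

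Icosl encodes the ligand of the T cell costimulator ICOS. Its level was 57.0 CPM at D0 (18 UMIs) and 144 at D5 (498 UMIs) in members and 149.7 and 137 in cDC2. The log2 ratio over cDC2 was -1.39 (-2.16 to -0.71) at D0 and 0.07 (-0.07 to 0.21) at D5, and that of its window -0.02 and -0.10. Il23a, the IL-23 subunit gene, was too low to compare, with 2 and 6 UMIs.

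Between the days, 24 genes (0.755% of 3177) were more than 2-fold higher in members at D5 than at D0 and 87 (2.74%) lower. The median over all genes was -0.15. TMM scaling shifts every value by 0.28 and gave 112 higher and 34 lower, so the balance of the directions depended on the scaling. Genes counted as higher or lower below lie above or below 0, not that median. Values of the other classes are given for part of them.

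The highest was Ifitm1, an interferon-induced membrane protein gene, with 15 UMIs (47.5 CPM) at D0 and 1994 (577 CPM) at D5, a log2 ratio of 3.60 (2.88 to 4.44). It was 4.11 in cDC2, 4.23 in pDC and 3.51 in cDC1 nuclei. Others were Plscr1 (1.94), Ifitm2 (1.49), Wfdc17 (1.47) and S100a4 (1.25), all also above 0 in cDC2 and pDC nuclei. Of the 24 genes higher in members, 22 were above 0 in cDC2, 23 in pDC and 22 of 23 compared in cDC1. Of the 87 lower genes, 83 were below 0 in cDC2, 82 of 86 compared in pDC and 83 of 85 in cDC1.

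Icosl (1.34, 0.66 to 2.10) was at -0.12 (-0.28 to 0.03) in cDC2 and 1.03 (0.81 to 1.26) in pDC nuclei. Ms4a4c was at 1.80 (1.01 to 2.72) in members, 0.41 in cDC2 and 1.27 in pDC. Cyp7b1, the oxysterol 7-alpha-hydroxylase gene, went from 41.2 to 97.6 CPM (1.24, 0.45 to 2.17), and in cDC2 nuclei from 7.17 to 36.2 (2.34). Its level in members was above that in cDC2 on both days. The differences between classes in these day ratios were not tested.

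**Figure D5:**
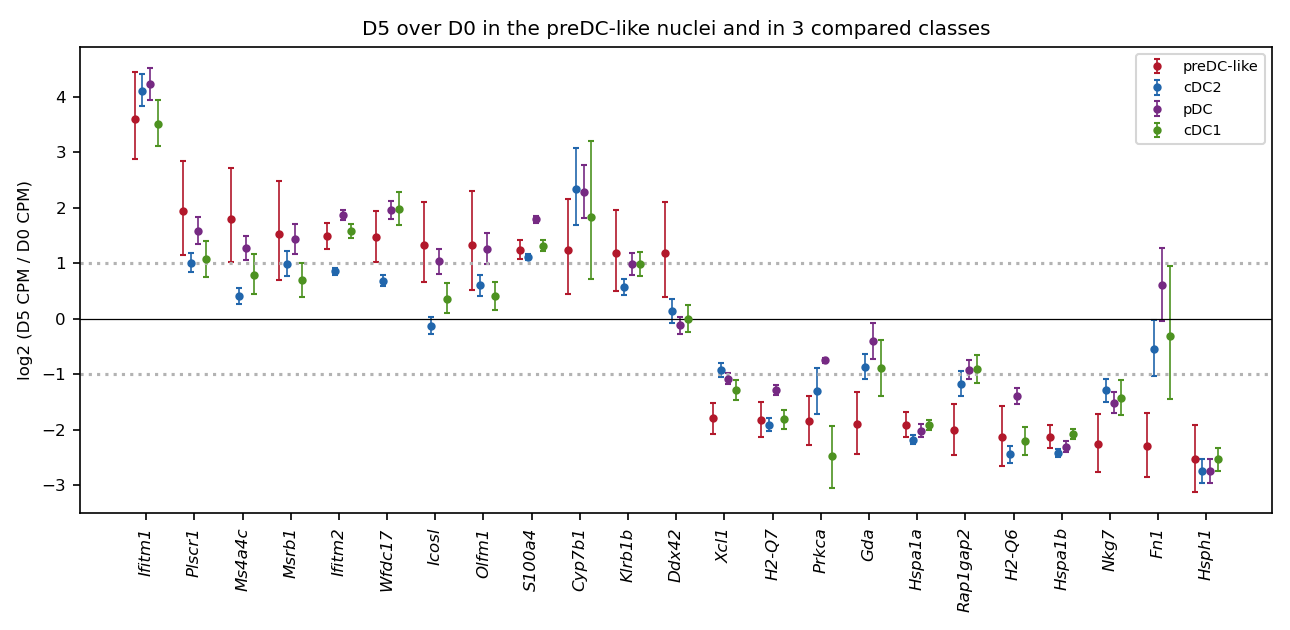
Log2 of D5 over D0 CPM for 23 of the 24 named genes in preDC-like, cDC2, pDC and cDC1 nuclei, with exact 95% intervals; dotted lines mark a 2-fold difference. Retnla (0 UMIs in members at D5) is not drawn; Ifitm1 was the highest in members (3.60), and Hsph1 the lowest drawn (-2.53).

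Lower at D5 were heat shock genes, Hsph1 (-2.53), Hspa1b (-2.13) and Hspa1a (-1.92), of which the last pair are near-identical copies that can share reads, and the NK cell transcripts Nkg7 (-2.25) and Xcl1 (-1.80). In cDC2 nuclei the values were -2.75 for Hsph1, -1.29 for Nkg7 and -0.93 for Xcl1. The 7 NK cell genes beside the 3 limited by the rule summed to 1359 CPM in members at D0 and 589 at D5, and to 1118 and 582 in cDC2, and their part in these differences was not tested. H2-Q6 (-2.13) and H2-Q7 (-1.82) are near-identical copies too. Retnla went from 45 UMIs in 2 nuclei (143 CPM) to 0, at least 164-fold lower when 3 UMIs are taken as the floor at D5 and the D0 level as it stands, and below -7.001 on the log2 scale by the exact interval. Fn1 (-2.29) rested on 4 nuclei at D0.

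Of the precursor genes, 6 of 11 were higher and 5 lower at D5, with a median of 0.01, and 0 were more than 2-fold higher (0.755% of all genes) and 1 lower (2.74%). The same list had medians of 0.12 in cDC2, 0.03 in pDC and -0.02 in cDC1 nuclei. Of the pDC genes only 4 were compared, all 4 lower, 1 by more than 2-fold, with a median of -0.79, and the list's median was -0.98 over 9 genes in cDC2, -0.60 over 11 in pDC and -0.57 over 9 in cDC1 nuclei. Tcf4 differed by -0.61 (-0.70 to -0.51), Runx2 by -0.98 (-1.19 to -0.77), Irf8 by -1.16 (-1.37 to -0.95), Blnk by -1.28 and Prkca by -1.84. Setbp1 differed by -1.40 (-1.71 to -1.09) in members, -1.01 in cDC2 and -0.11 in pDC nuclei. Cd7 (0.15, -0.11 to 0.43) differed by no more than its interval. Of 12 MHC class II genes, 11 were higher at D5, 8 beyond their intervals and 0 by more than 2-fold (0.755% of all genes), with a median of 0.38. The list's median was 0.05 in cDC2, 0.79 in pDC and 0.26 in cDC1 nuclei.

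In open chromatin, where counts per feature differ from those of genes, the days were compared separately. Of 10782 regions compared in members, 44 (0.408%) were more than 2-fold higher at D5 and 15 (0.139%) lower, with TMM scaling 157 and 1, and at 10 expected fragments 394 and 290. Of 9630 start-site windows, 4 (0.0415%) were higher and 14 (0.145%) lower. Outside chromosome 18, a region at the Gnb2 start, chr5:137530766-137531633, was the highest (1.45, 0.57 to 2.48), from 11 fragments at D0 to 171 at D5.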

How the data were processed

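The RNA and ATAC layers were read from nuclei of CD11c+ liver cells, 1 library per day. For each library the authors deposited raw counts per barcode, namely UMIs per gene and cut counts per peak. Per the RNA file headers these came from Cell Ranger 6.0.2, and per the labels' processing notes from Cell Ranger ARC 2.0.2 with mm10. The joint matrices held all barcodes and the RNA matrices the called ones, 16260 at D0 (44496348 UMIs) and 27873 at D5 (94374499 UMIs). A nucleus's layers were paired where its UMIs were the same for every gene in both matrices, which gave 1 partner for every called barcode.

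Counts were summed per class and day and scaled to CPM. Log2 ratios carried exact conditional (Clopper-Pearson) intervals, levels exact Poisson and shares exact binomial intervals, at 95% confidence. UMIs and fragments of 1 nucleus are not independent, so intervals cover counting error only. With 1 library per day no test across replicates was possible. A gene or region was compared where 20 counts were expected in the smaller group, "called" meant past 2-fold, and a count of 0 was bounded by 3 counts per group. The 24 genes used by the rules were left out. Peak counts were divided by 2 to give fragments (70.4% and 75.1% of entries equalled 2). Overlapping peaks, 142799 at D0 and 147725 at D5, were merged into 127216 shared regions. A start-site window was the sum over regions within 2 kb of the position given for the gene with the deposited counts. These positions need not match the RefSeq starts of the printed sequences. Shares of fragments per nucleus used nuclei with 500 or more fragments.

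Named were up to 12 genes of each direction and contrast, and 6 regions, by the log2 ratio (between classes, by that nearer to 0 of both days). Mitochondrial, ribosomal and model genes were left out, as were regions on chromosome 18. Genes of the listed groups were named as members of their list. A few results that this rule names are not reported here. The members and all lists were chosen with earlier results of these data known. Doublets were scored by simulation and kept; alternatives removed scores of 0.2 or more, used TMM, no filter, thinning to 1000 UMIs or other rule sums. On simulated counts, 96.2% of intervals covered the true ratio for D5 over D0 (3220 genes) and 95.7% for preDC-like over cDC2 at D5 (9311 genes). Python 3.11.15, numpy 2.4.6, scipy 1.17.1, pandas 2.3.3 and matplotlib 3.10.9 were used.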

Additional observations from a re-analysis of the deposited data

Results flagged for a closer look

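Diaph3, a formin gene, was lower in preDC-like nuclei at D5 and higher in pDC nuclei, each beyond its counting interval. Its level in members went from 95.03 CPM (30 UMIs) to 46.0 CPM (159 UMIs), a log2 ratio of -1.05 (-1.62 to -0.43), and in pDC from 14.7 to 22.4 CPM (0.61, 0.22 to 1.01). Batf, a transcription factor gene, went from 98.2 to 61.4 CPM in members (-0.68, -1.23 to -0.08) and from 15.0 to 35.7 CPM in cDC1 nuclei (1.25, 0.71 to 1.84). The difference between the classes was not tested, since each day was 1 library. Over all genes compared in both classes, 49 of 3185 differed in opposite directions beyond both intervals between members and cDC2, 26 of 3187 between members and pDC, and 31 of 3182 between members and cDC1.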

How the results depend on the processing

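No paired analysis was possible because each day was 1 library, and for the same reason no library could be left out. The share of members depended on the rule. It was 2.304% at D0 and 6.759% at D5 with a sum of 2 or more, 0.4901% and 2.178% with 4 or more, 0.5531% and 1.232% after thinning, 0.5251% and 2.561% without Ly6c2, and 0.6582% and 3.008% with 2 or more rule genes detected. Between days, TMM scaling gave 112 higher and 34 lower genes, no filter 553 and 2349, thinning 51 lower, and members with 2 or more rule genes 14 higher, with Fn1 reversed at 0.06945. Against cDC2 on both days the lower genes were 28 with TMM, 34 without high doublet scores, 67 after thinning and 5 with 2 or more rule genes, and no filter gave 591 higher and 48 lower. Against pDC, no filter gave 365 and 483, removal of doublets 163 higher and thinning 88 lower, and against cDC1 no filter gave 695 and 286. The ligand median at D5 was -0.7289 with TMM and -0.8391 without doublets. Regions between days numbered 157 and 1 with TMM, 10 and 3 with any count taken as 1, 394 and 290 at 10 expected fragments, and 8 lower without doublets. Regions against cDC2 numbered 6019 and 1733 at D5 with 10 expected fragments, and at D0 34 and 406 with TMM, 20 and 82 with any count as 1, 35 and 96 without doublets and 902 and 1016 with 10 expected. Chosen after seeing the data, the following were added. At D5 the pDC-selective share of members was 1.559% of UMIs and 2.271% of fragments without doublets, and 1.362% and 1.82% in members with 0 UMIs of Siglech, Grm8 and Ccr9. Genes above all 3 classes were 1 with TMM. Of 828 values over 167 named results, 824 kept their direction with an interval on 1 side of 0, whether or not they stayed past 2-fold. Of the 824, 167 came from the setting with no filter, which leaves each ratio as it was, so they could not differ. The named genes were also chosen for intervals on 1 side of 0 in the same counts. The values of Klrb1b, Ddx42 and Gda spanned 0 after thinning (0.13, 0.61 and -0.71). Retnla had no ratio, and Fn1 and Olfr164 after thinning and Sema4b and P3h2 with 2 or more rule genes gave none. The cause was not tested for any of these. The 136 members at D0 limit the genes and regions that could be compared on both days.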

Other observations

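Proliferation genes were measured too. At D5, 16 of 20 cell cycle genes were compared with cDC2, of which 1 was more than 2-fold higher and 0 lower in members, with a median log2 ratio of 0.05, beside 3.01% and 0.624% of all genes. At D0, 3 were compared, all 3 lower and 1 of them by more than 2-fold (3.43% of all genes), with a median of -0.41. Summed over the list, members stood at 539 CPM at D0 and 473 at D5 and cDC2 nuclei at 728 and 457. Mki67, the proliferation antigen gene, was at 47.5 and 59.3 CPM in members and 98.1 and 53.3 in cDC2.

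Of 17 trafficking genes, 13 were compared with cDC2 at D5, of which 1 was more than 2-fold higher (3.01% of all genes) and 0 lower, with 9 above 0 and a median of 0.17. At D0, 7 of 11 were below 0, 5 beyond their intervals, with 1 more than 2-fold higher (5.52% of all genes), 0 lower and a median of -0.29. Ccr7, the receptor that guides dendritic cells to lymph nodes, was at 105 CPM in members and 79.1 in cDC2 at D5 (log2 0.41, 0.24 to 0.58) and at 66.5 and 97.3 at D0. Of 17 innate sensor genes, 9 of 11 compared at D5 were lower in members than in cDC2, 1 of them by more than 2-fold (0.624% of all genes), with a median of -0.33. The other 2 were higher, 1 of them by more than 2-fold (3.01%). At D0, 2 were compared, both lower and 1 by more than 2-fold (3.43%), with a median of -1.12. Tlr7, a sensor of single-stranded RNA, was at 22.2 and 11.9 CPM in members, 9.43 and 5.80 in cDC2 and 144 and 94.97 in pDC nuclei. Of 18 interferon response genes, 12 of 15 were lower in members than in cDC2 at D5, 1 of them by more than 2-fold (0.624% of all genes), with a median of -0.52. At D0 only 5 could be compared, of which 3 were higher, 1 of them by more than 2-fold (5.52%), and 2 lower, with a median of 0.50. The medians of the days thus rest on different sets of genes, and a change of direction was not tested.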
